A study of Homo sapiens with 24 samples.

Results

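HP1γ depletion was examined in the absence of hormone in Nalm6 cells, an established human B-cell precursor acute lymphoblastic leukemia line. The comparison used 6 of the 24 libraries of the RNA-seq study, chosen by their labels: 3 libraries of cells expressing shRNA against HP1γ (shHP1γ) and 3 of cells expressing a non-specific shRNA (shNS), all treated for 8 h with ethanol, the vehicle of dexamethasone (dex). Each shRNA was delivered by lentivirus and the cells were used as puromycin-resistant pools, so both groups shared transduction and selection, and 1 hairpin construct is named for each target. The 3 replicates of each condition were prepared on different days, and libraries with the same number were treated as a pair. The other 18 libraries, which held shG9a and shGLP cells in ethanol and cells with any of the 4 hairpins in 100 nM dex, entered the estimate of the spread and are used below for comparison with the 6.

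HP1γ, the product of CBX3, belongs to the family of HP1 proteins, which bind histone H3 methylated at lysine 9 (H3K9) and are best known as components of heterochromatin. HP1γ is also found over the bodies of active genes. G9a (EHMT2) and GLP (EHMT1) are H3K9 methyltransferases that also methylate themselves, and their methylated tails are bound by HP1γ. In this study HP1γ was followed as a partner of G9a and GLP at genes regulated by the glucocorticoid receptor, so the libraries without hormone give the state on which the hormone acted.

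The 6 libraries held 11426681, 10840822 and 11967904 counts (shNS replicates 1 to 3) and 9658677, 10430714 and 11535808 counts (shHP1γ). Counts are given per RefSeq transcript. Genes with 2 or more listed transcripts were often at 0, since 73.9% of their accessions had no count in any of the 24 libraries, against 28.1% of the accessions of genes with a single one. CD22, CD79B, DNTT and BLNK, defining markers of B-cell precursors, were accordingly listed at 0 in all 6 libraries, while RAG1, IGLL1, CD79A and MME were detected. The summed level of the 12 B-lineage markers was 1633 to 1843 CPM (counts per 1e6 counts of the library) in shNS and 1293 to 1557 CPM in shHP1γ. RAG1 made up most of that sum, and PAX5, EBF1 and VPREB1 had at most 6 counts in any library. The 12 T cell markers summed to 18.05 to 22.4 CPM and 19.7 to 25.3 CPM, with 8 of them at 0, and the 12 myeloid markers to 8.19 to 12.1 and 7.63 to 14.4 CPM, with 5 at 0. The 13 erythroid and megakaryocyte markers summed to 1.504 to 2.03 and 2.59 to 3.21 CPM, so this low sum was higher in every shHP1γ library, with HBG1, HBG2, PF4 and PPBP among those at 0, and the 10 epithelial markers stayed under 0.418 CPM, with 8 at 0. The part of these markers in the results was not tested. In bulk RNA a lower level can come from fewer cells of a type or from less RNA per cell, which cannot be told apart. All other CPM values below, apart from a summed level of histone genes, use library sizes scaled by upper quartile factors.

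Replicate 1 of shHP1γ stood apart from the other shHP1γ libraries. The chi-squared value per degree of freedom between their counts was 21.6 and 29.6 for pairs with replicate 1 and 10.3 between replicates 2 and 3, and in dex 28.9 and 30.3 against 4.77, while the shNS ethanol pairs had 5.09 to 12.6. Without shHP1γ replicate 1 in ethanol, 170 transcripts were called in the comparison described below, 142 of them among its 296 calls and in the same direction.

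The targeted gene was read before the others. CBX3 (GRCh37, chromosome 7, 26240782 to 26253227, plus strand) is listed under both of its accessions, NM_016587 and NM_007276, and each had few counts. NM_016587 had 49, 46 and 42 counts in shNS and 33, 28 and 27 in shHP1γ. Its 3 shHP1γ libraries, at 3.39, 2.78 and 2.41 CPM, were all below the 3 shNS libraries, at 4.26, 4.24 and 3.57 CPM. The fitted log2 fold change was -0.50 (SE 0.22, adjusted p = 0.277, edgeR quasi-likelihood test), which did not pass the threshold of 0.05. NM_007276 had 32, 39 and 44 counts in shNS and 28, 25 and 32 in shHP1γ, with overlapping CPM and a log2 fold change of -0.30 (SE 0.24, adjusted p = 0.644). With the counts of both summed, the log2 fold change was -0.38 (adjusted p = 0.278). The fall of CBX3 was therefore not called. CBX3 is one of the genes with more than 1 accession, whose accessions were often at or near 0 in this table, so these counts may hold only part of its reads. The study checked depletion by immunoblot and RT-qPCR and reported that HP1γ was efficiently depleted, as protein and as mRNA, in its 3 biological replicates. Those measurements were not analysed here, and the groups are named by their labels.

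In ethanol, 296 of 10167 tested transcripts, of 293 genes, were called different in shHP1γ and shNS with the adjusted p limit of 0.05 (2.91% of those tested), with 165 higher in shHP1γ (1.62%) and 131 lower (1.29%). The rises were the larger ones. The median absolute log2 fold change was 0.58 among the transcripts that rose and 0.32 among those that fell, 42 rose at least 2-fold and 2 fell at least 2-fold, while 48 of the rises and 82 of the falls were under 1.3-fold. All 296 moved in the same direction in 3 of 3 pairs. The shHP1γ and shNS libraries did not overlap for 263 of them, against 1488 (14.6%) of all transcripts tested. The 296 were chosen by a test on these same libraries, so both counts largely follow from that choice and are not further support. Without the replicate block the same contrast gave 66 calls, all of them among the 296. With counts summed per gene 70.4% of the calls were higher and with no filter 38.1%, against 55.7% here, so the share of calls in each direction depended on these settings.

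Replicate support was uneven. Leaving out replicate 1, 2 or 3 from both the shHP1γ and the shNS sides left 152, 133 and 37 calls, and leaving out a single library left 121 to 203. Of the 296 calls, 28 stood in all 9 of these fits, 21 higher and 7 lower, and the genes described next are mainly taken from these 28. They include GRID1, TSPEAR-AS1, LINC00504, LINC01602, LINC00861, LINC01694, TUFM, FSTL4, CCDC88B, DDIT4L, FBXO33 and MESDC1 among the rises, and ERGIC2, REEP3, CACNA2D3, SNTB2, ARL6IP5 and TRAK2 among the falls.

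**Figure D1:**
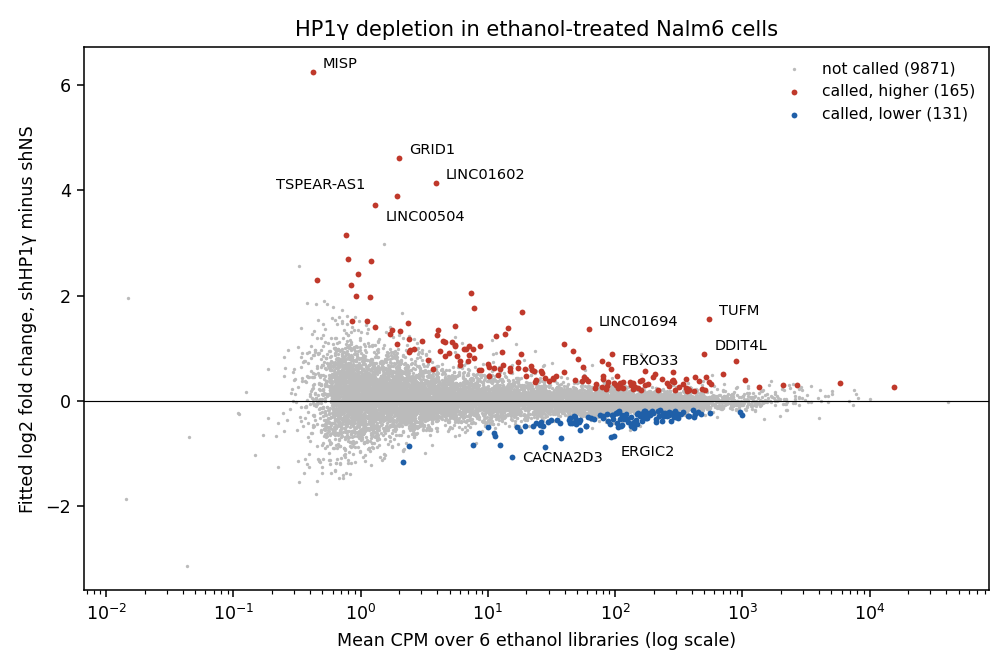
Each point is 1 of the 10167 tested transcripts, with its mean CPM over the 6 ethanol libraries on a log axis and its fitted log2 fold change, shHP1γ minus shNS. The 165 transcripts called higher reach large fold changes at low expression (GRID1, LINC01602), while the 131 called lower lie close to 0, and fitted values of transcripts near 0 counts depend on the prior count.

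The largest rises came from transcripts that were close to silent in shNS. GRID1, which encodes a delta-type glutamate receptor subunit (NM_017551, chromosome 10, 87359309 to 88126552, minus strand), had 2, 2 and 1 counts in shNS and 31, 39 and 51 in shHP1γ. This is a ratio of 26.6 with a 95% counting interval of 11.1 to 83.5 (adjusted p = 7.28e-06). TSPEAR-AS1, a long noncoding RNA antisense to TSPEAR (NR_103707, chromosome 21, 45926690 to 45936458, plus strand), went from 3, 2 and 3 counts to 39, 30 and 43, a ratio of 15.4 with an interval of 7.55 to 36.6 (adjusted p = 1.43e-05). LINC00504 (NR_126435, chromosome 4, 14472089 to 14889793, minus strand) went from 1, 2 and 3 counts to 21, 24 and 31, a ratio of 13.9 with an interval of 6.12 to 39.2 (adjusted p = 7.92e-05). For all 3 the lowest shHP1γ library was far above the highest shNS library.

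LINC01602 (NR_130934), another long noncoding RNA, rose from 0.434, 0.276 and 0.510 CPM to 6.99, 8.03 and 7.22 CPM, a log2 fold change of 4.14 (SE 0.31, adjusted p = 5.13e-08). MISP, a protein of the mitotic spindle and cell cortex (NM_173481), was at 0 in every shNS library and had 13, 5 and 8 counts in shHP1γ, at least 3.22-fold higher against a floor of 3 counts per library. KCNK9, a potassium channel gene, had 1, 3 and 1 counts against 13, 15 and 15 on its noncoding accession NR_104210 (ratio 9.46, interval 3.76 to 30.6). FHAD1 (NM_052929) had 2, 1 and 2 counts against 7, 4 and 13 (ratio 5.28, interval 1.98 to 17.7). The calls of these last 3 genes were less stable, since MISP was lost without replicate 1 or 3 (adjusted p up to 0.0875), KCNK9 without replicate 3 (0.0772), and FHAD1 in 8 of the 9 leave-one-out fits (up to 0.419). Counting intervals and floors cover counting error only.

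**Figure D2:**
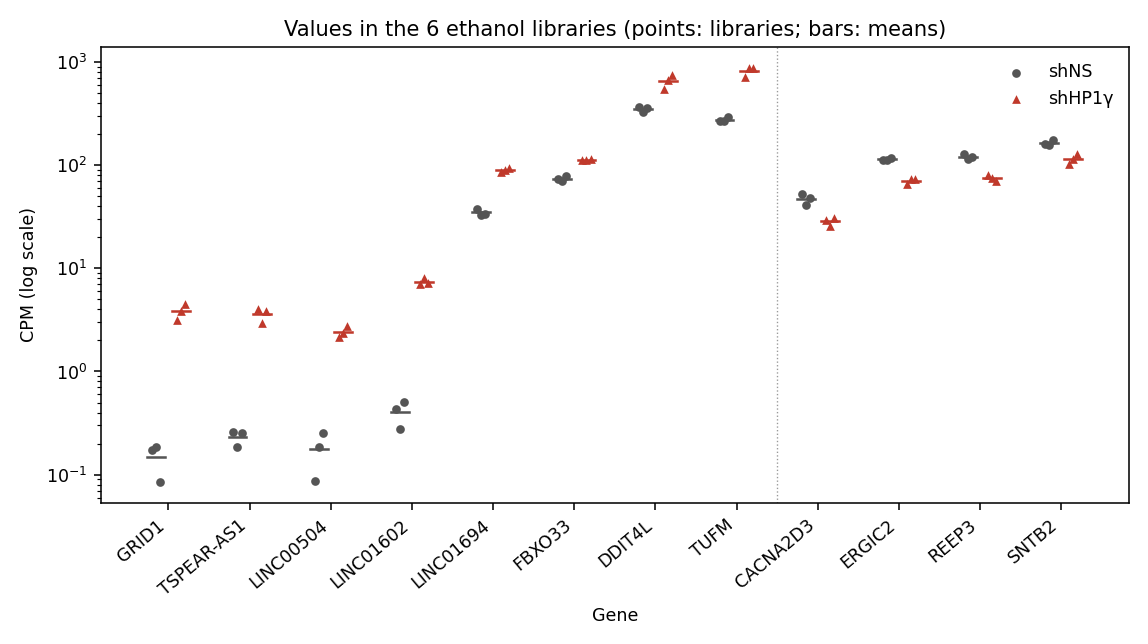
CPM on a log axis in each of the 3 shNS (circles) and 3 shHP1γ (triangles) ethanol libraries for 8 genes that rose (left of the dotted line) and 4 that fell, with bars at the group means. The groups do not overlap for any of the 12, and GRID1 goes from at most 0.184 CPM in shNS to at least 3.19 CPM in shHP1γ.

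The start site windows of TSPEAR-AS1, TUFM and ERGIC2 are shown because these are a rise from near silence, a rise of an abundant transcript and a fall, and their calls held in all 9 leave-one-out fits. The sequences are RefSeq's, on GRCh38.p14, and run from 250 bases before to 50 bases after the start in the direction of transcription, with each CG dinucleotide, the site of DNA methylation, in capitals. CG reads the same on both strands.
TSPEAR-AS1 (chr21:44505794-44506093, plus strand): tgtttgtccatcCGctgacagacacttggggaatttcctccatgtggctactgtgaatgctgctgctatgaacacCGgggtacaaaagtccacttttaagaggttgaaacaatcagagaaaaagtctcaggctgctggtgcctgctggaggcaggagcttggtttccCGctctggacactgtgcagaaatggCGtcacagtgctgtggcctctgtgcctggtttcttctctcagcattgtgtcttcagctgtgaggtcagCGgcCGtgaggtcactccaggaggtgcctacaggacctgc
TUFM (chr16:28846299-28846598, minus strand): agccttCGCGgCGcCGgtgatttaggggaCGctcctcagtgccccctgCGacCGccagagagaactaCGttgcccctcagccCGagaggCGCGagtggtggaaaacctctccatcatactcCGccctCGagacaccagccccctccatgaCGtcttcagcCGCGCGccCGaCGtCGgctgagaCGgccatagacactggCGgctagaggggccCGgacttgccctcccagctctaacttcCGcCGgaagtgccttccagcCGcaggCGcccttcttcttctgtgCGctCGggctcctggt
ERGIC2 (chr12:29381123-29381422, minus strand): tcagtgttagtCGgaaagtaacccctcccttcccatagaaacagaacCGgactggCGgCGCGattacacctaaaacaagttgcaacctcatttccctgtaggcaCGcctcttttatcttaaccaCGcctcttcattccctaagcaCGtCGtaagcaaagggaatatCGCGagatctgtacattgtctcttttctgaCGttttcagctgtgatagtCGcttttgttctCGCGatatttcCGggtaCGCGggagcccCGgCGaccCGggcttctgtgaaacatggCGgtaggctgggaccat
The TSPEAR-AS1 window held 6 CG, a number that 37.5% of the 27305 RefSeq start windows of this length do not exceed, against a median of 14. TUFM had 29 CG (77.9% of windows had as many or fewer) and ERGIC2 22 (64.4%). The counts describe the letters only, as no mark or binding was measured here.

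Among abundant transcripts the clearest rise was TUFM, the mitochondrial translation elongation factor (NM_003321, GRCh37 chromosome 16, 28853732 to 28857669, minus strand). It had 270, 265 and 291 CPM in shNS and 715, 872 and 865 CPM in shHP1γ, a log2 fold change of 1.57 (SE 0.06, adjusted p = 3.27e-14). LINC01694 (NR_146912, chromosome 21, 47010685 to 47023002, plus strand) rose from 37.9, 32.7 and 33.9 CPM to 85.1, 89.5 and 93.6 CPM, a log2 fold change of 1.36 (SE 0.09, adjusted p = 6.58e-10). DDIT4L, a relative of the mTORC1 inhibitor DDIT4, rose from 369, 326 and 356 CPM to 542, 666 and 755 CPM (log2 fold change 0.89, SE 0.11). In each of these genes the 3 shHP1γ libraries were above all 3 shNS libraries.

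FBXO33, which encodes a substrate adaptor of an SCF ubiquitin ligase, had 73.1, 70.5 and 78.1 CPM in shNS and 111, 112 and 116 CPM in shHP1γ (log2 fold change 0.61, SE 0.06, adjusted p = 4.72e-07). MESDC1, a talin-rod-domain protein, rose by 0.46 on the log2 scale (SE 0.06), and ADNP2, a zinc finger homeobox protein, by 0.42 (SE 0.06). The ADNP2 call was lost without replicate 3 (adjusted p = 0.0650). FSTL4, a follistatin-like gene, rose from 8.16, 6.997 and 8.42 CPM to 23.7, 17.8 and 20.5 CPM, and CCDC88B, a coiled-coil protein of lymphocytes, from 2.61, 2.85 and 3.57 CPM to 7.61, 7.64 and 8.92 CPM. Their log2 fold changes were 1.39 (SE 0.18) and 1.42 (SE 0.22), with no overlap between the groups.

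The calls of most remaining large rises were lost in some of the smaller fits. LINC00861 (NR_038446) had 3.21, 2.03 and 2.98 CPM in shNS against 18.9, 6.64 and 10.1 CPM in shHP1γ (log2 fold change 2.05, SE 0.30), and its call held in all 9 leave-one-out fits. TSPAN8, a tetraspanin, had 25.2 CPM in shHP1γ replicate 1 but 6.74 and 5.17 CPM in the others, against 2.64 to 4.17 CPM in shNS. Its log2 fold change of 1.76 was 1.19 without shHP1γ replicate 1 (adjusted p = 0.170), and the call was also lost without shNS replicate 1 or replicate 3. LOC101929698 showed the same shape, with 61.7, 13.0 and 13.1 CPM against 5.53 to 10.6 CPM, and it was lost in 5 of the 9 fits (adjusted p = 0.224 without shHP1γ replicate 1). CDH5, the vascular endothelial cadherin gene, rose by 1.97 on the log2 scale (SE 0.34) and was lost without replicate 1 (0.125). LINC01164 rose by 2.66 (SE 0.47) and was lost without replicate 2 or 3 (up to 0.114). LZTS1, LINC01163 and LOC441179, with log2 fold changes of 1.51, 1.47 and 1.40, were each lost in at least 7 of the 9 fits, with adjusted p up to 0.367.

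Falls were smaller and mostly in well expressed genes. ERGIC2, a cargo receptor of the compartment between endoplasmic reticulum and Golgi (NM_016570, chromosome 12, 29490285 to 29534122, minus strand), fell from 112, 112 and 116 CPM to 65.6, 73.7 and 72.8 CPM, a log2 fold change of -0.68 (SE 0.08, adjusted p = 7.96e-06). REEP3, which shapes endoplasmic reticulum membranes (NM_001001330, chromosome 10, 65281161 to 65384888, plus strand), fell from 127, 114 and 121 CPM to 80.2, 75.4 and 70.8 CPM (-0.67, SE 0.08, adjusted p = 1.33e-05). CACNA2D3, an auxiliary calcium channel subunit, fell from 52.3, 40.8 and 47.9 CPM to 29.1, 26.0 and 30.8 CPM (-0.71, SE 0.11). None of these groups overlapped.

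SNTB2, a syntrophin of the dystrophin complex, went from 160, 156 and 176 CPM to 102, 115 and 128 CPM (-0.51, SE 0.07). ARL6IP5, a membrane protein of the endoplasmic reticulum, fell by 0.45 on the log2 scale (SE 0.06) and TRAK2, which links mitochondria to kinesin, fell by 0.38 (SE 0.05). OAS2, an interferon-induced oligoadenylate synthetase, fell from 62.9, 65.4 and 76.4 CPM to 42.0, 52.9 and 52.6 CPM (-0.48, SE 0.07), and this call was lost without replicate 3 (adjusted p = 0.0838). The largest fitted fall was in TET2, which oxidises 5-methylcytosine, on its accession NM_017628, from 3.47, 3.31 and 2.21 CPM to 1.13, 1.59 and 1.25 CPM (-1.16, SE 0.26). It was lost in 6 of the 9 leave-one-out fits (adjusted p up to 0.219).

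The calls of the other large falls were also lost in several of the smaller fits, while their fitted values stayed below 0. They were PNISR on its noncoding accession NR_136326 (-1.06), the long noncoding RNAs LOC285766 (-0.87), LOC100130872 (-0.83) and LOC101928103 (-0.61), the atypical chemokine receptor CCRL2 (-0.85), the kinase activator MOB3B (-0.84), the pseudogene ANKRD18DP (-0.66) and the ubiquitin ligase RNF144B (-0.60). Each was lost in at least 5 of the 9 fits, with the highest adjusted p between 0.150 (RNF144B, without replicate 1) and 0.492 (CCRL2, without replicate 3). PNISR was lost without any one of the 6 libraries, with log2 fold changes from -1.18 to -0.99 over the 9 fits. MOB3B was lost without replicate 1 or 2 and ranged from -1.24 to -0.56, and LOC101928103 ranged from -0.77 to -0.52.

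The list of HP1 proteins and H3K9 machinery gave no call, against 162 rises and 128 falls among all 9391 tested genes. Of 30 listed genes 21 were tested, CBX3 among them, and their median log2 fold change was 0.04 against 0.02 over all tested transcripts. CBX5 was the only other HP1 gene tested. CBX1, EHMT2 and SETDB1 were not among the 21, so nothing is said of their levels. TRIM28, the corepressor that recruits H3K9 methylation to zinc finger targets, had 1463, 1639 and 1850 CPM in shNS and 1492, 1783 and 1957 CPM in shHP1γ (0.08, SE 0.07). KDM4A and KDM4B, which demethylate H3K9, had log2 fold changes of 0.06 (SE 0.05) and 0.22 (SE 0.12). CBX5, encoding HP1α, had -0.28 (SE 0.21) and EHMT1 -0.18 (SE 0.20), both on accessions at 3.39 to 6.25 CPM. LBR, an inner nuclear membrane protein that binds HP1, had 2.78 to 3.15 CPM in shNS and 4.01 to 5.45 CPM in shHP1γ (0.65, SE 0.22, adjusted p = 0.128). SUV39H1 was at or under 1.10 CPM in all 6 libraries and had a value of -1.53 (SE 0.76, adjusted p = 0.363). ADNP, a chromatin remodelling partner of HP1, was at a mean of 0.441 CPM in shNS and 1.09 CPM in shHP1γ (1.28, SE 0.47, adjusted p = 0.169), and ATF7IP, a cofactor of the methyltransferase SETDB1, at 0.317 and 0.617 CPM (0.91, SE 0.60). The remaining log2 fold changes lay between -0.14 and 0.08. They were those of the histone chaperone subunits CHAF1A and CHAF1B, the demethylases KDM3B and KDM4C, the HUSH complex members MPHOSPH8, FAM208A and PPHLN1, the G9a and GLP partners WIZ and ZNF644, UHRF1 and CDYL.

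Zinc finger genes and germline genes, which H3K9 methylation is known to silence in many cells, and long noncoding RNA genes were read separately. Of 258 tested ZNF zinc finger genes, 7 rose and 1 fell, against 162 and 128 of 9391 genes. ZNF626, on the zinc finger cluster of chromosome 19, rose from 4.78, 4.97 and 4.08 CPM to 9.67, 9.72 and 9.09 CPM (1.04, SE 0.18, adjusted p = 0.00162), a call lost without replicate 3 (0.0772). ZNF726 (0.76, SE 0.17), ZNF280C (0.32, SE 0.07) and ZNF768 (0.27, SE 0.06) also rose, and each was lost in at least 3 of the 9 fits, with adjusted p up to 0.286 for ZNF726. Of 60 listed protocadherin and germline genes, 36 were at 0 in all 6 libraries and 7 were tested, with none called. Among the 7, TDRD9 had a mean of 0 CPM over the 6 libraries. Most of this list could therefore not be read. Long noncoding RNA genes whose symbol starts with LINC or ends in -AS1 held 16 rises and 0 falls among 550 tested, a definition that leaves out noncoding genes with other names such as the LOC genes above that fell and SNHG6. The rises were led by LINC01602, TSPEAR-AS1, LINC00504 and LINC01694. Over all 550 tested genes of this list the median log2 fold change was 0.06.

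Among genes of the growth and stress programmes few were called. PLK1 and CDC20, a mitotic kinase and an activator of the anaphase-promoting complex, were the calls among 24 tested mitosis genes, against 162 rises among all 9391 tested genes. The list had a median log2 fold change of 0.19, with 21 of 24 above 0, against a median of 0.02 over all genes. PLK1 had 246, 437 and 393 CPM in shNS against 378, 567 and 518 CPM in shHP1γ (0.46, SE 0.09), and CDC20 345, 563 and 528 CPM against 454, 727 and 661 CPM (0.36, SE 0.08). The groups overlapped in both, as replicate 1 was low on both sides, and the difference was seen within each pair. Without replicate 3 their adjusted p values were 0.114 and 0.257, and CDC20 was also lost without 3 single libraries. The 24 DNA replication genes gave no call, with a median of -0.09.

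RPS3A (0.26, SE 0.05), RPL29 (0.31, SE 0.07) and RPS7 (0.31, SE 0.08) rose among 100 tested ribosomal protein genes, which had a median of 0.12. A share of 3 of 100 is to be read against the 162 rises among 9391 genes. Each was lost without replicate 3, with adjusted p from 0.191 to 0.324, RPS3A also without replicate 1, RPL29 in 6 and RPS7 in 8 of the 9 fits. The 28 MYC and ribosome biogenesis genes, the 36 respiratory chain and ATP synthase genes, the 19 glycolysis and hypoxia genes, the 18 sterol and fatty acid synthesis genes, the 26 RNA splicing factors and the 20 protein folding genes gave 0 calls. SLC7A11, the cystine importer, was the single call among 27 tested genes of the integrated stress response (-0.55, SE 0.15) and was lost in 8 of the 9 fits (adjusted p up to 0.318). With 162 rises and 128 falls among all 9391 tested genes, lists of this size hold few calls or none. The 61 tested histone genes had a median log2 fold change of 0.60, with 55 of them above 0, and none was called. Their summed level, in CPM of unscaled libraries, was 4615 to 4787 in shNS and 4923 to 5229 in shHP1γ. The sum thus rose by less than the median, which weights every gene alike whatever its level. In dex the median of the histone genes was -0.19.

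**Figure D3:**
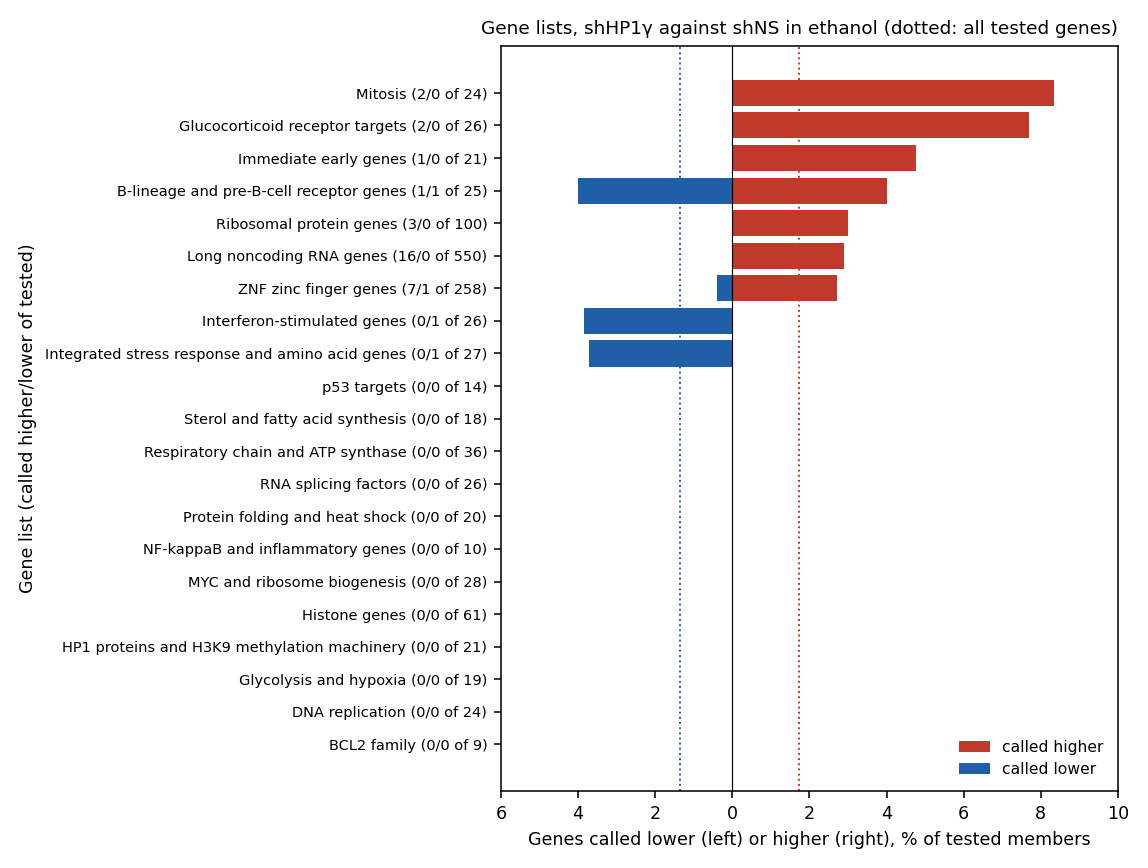
For each gene list with at least 9 tested members, bars give the percentage of tested members called higher (right) or lower (left) in shHP1γ ethanol, with the counts beside the names and dotted lines at the share among all 9391 tested genes. Of 21 lists, 12 hold no call and 3 hold more than 2 calls, the ZNF, ribosomal protein and long noncoding RNA genes.

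IER2 was the call among 21 immediate early genes, from 155, 170 and 184 CPM to 197, 272 and 261 CPM (0.51, SE 0.07, lost without replicate 3 at an adjusted p of 0.0569). OAS2 was the call among 26 interferon-stimulated genes, whose median was 0.02. The 14 p53 targets, 10 NF-κB and inflammatory genes and 9 BCL2 family genes gave 0 calls. The 3 tested members of the MHC class II list, RFXAP, CD74 and RFXANK, also gave 0 calls, and no HLA gene of that list was tested. Of 25 tested B-lineage genes, POU2AF1, the B-cell coactivator of octamer factors, rose by 0.28 (SE 0.07) and CD180, a toll-like receptor relative of B cells, had -0.32 (SE 0.07). Both were lost in at least 6 of the 9 fits, with adjusted p up to 0.222 and 0.283. The calls of these lists are to be read against 162 rises and 128 falls among all 9391 tested genes. At that share, lists of this size hold few calls or none. RAG1, the recombinase subunit, was lower in all 3 pairs, at 1721, 1641 and 1568 CPM in shNS and 1420, 1223 and 1235 CPM in shHP1γ (-0.35, SE 0.11), but did not pass the test (adjusted p = 0.0784).

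Genes that respond to the glucocorticoid receptor were of interest because no hormone had been added. Of 26 tested targets, 24 were not called, and IRS2 and KCNJ2 rose, against 162 of 9391 genes. IRS2, an insulin receptor substrate, went from 116, 119 and 122 CPM to 159, 137 and 148 CPM (0.31, SE 0.08) and was lost in all 9 fits (adjusted p up to 0.291). KCNJ2, an inward rectifier potassium channel, went from 43.3, 46.0 and 40.8 CPM to 70.5, 64.0 and 69.7 CPM (0.65, SE 0.13) and was lost without replicate 3 (adjusted p = 0.106), shHP1γ replicate 3 or shNS replicate 1. In the dex libraries 3 of the 26 were called higher and 9 lower in shHP1γ than in shNS, against 256 and 156 of 9391 genes. All 9, and KCNJ2 and MXI1 among the 3, are genes that the study listed as dex-regulated and dependent on G9a, GLP and HP1γ. That listing came from these same dex libraries, so the dex counts largely follow from the choice of genes and are not further support.

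Called transcripts differed from the tested ones in base composition and position, properties that the contrast did not use. The median GC content of the transcript was 55.4% among those that rose, 42.0% among those that fell and 49.5% among all tested. Chromosome 19, which is rich in genes and in GC, held 27 of the 157 rises with a position (17.2%), 2 of 129 falls (1.55%) and 7.70% of tested transcripts. Among transcripts of at least 30 CPM, the log2 ratio of shHP1γ to shNS was higher in the most GC-rich 20% than in the most GC-poor 20% in each pair, by 0.07, 0.20 and 0.09 at the median. With offsets corrected for GC content, 254 transcripts were called, 211 of them among the 296 and in the same direction. GRID1, TUFM, LINC01694, FBXO33, ERGIC2 and REEP3 had adjusted p values from 4.87e-16 (TUFM) to 6e-05 (ERGIC2) after the correction, while POU2AF1, SLC7A11, IRS2 and S1PR4 had 0.0552, 0.133, 0.139 and 0.155.

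Some called genes lay near each other. There were 14 pairs of called genes within 250 kb, 11 of them in the same direction and 3 in opposite directions. The share of such pairs among all tested genes was not computed, so the count is a description only. GNA11, GNA15 and S1PR4, which encode 2 G protein alpha subunits and a sphingosine receptor, lay within 48.3 kb of each other on chromosome 19 and rose by 0.45 (SE 0.07), 0.41 (SE 0.07) and 0.36 (SE 0.09). GNA11 and GNA15 were lost without replicate 2 (adjusted p = 0.0512 and 0.0550), and S1PR4 in 7 of the 9 fits. S1PR4 had an adjusted p up to 0.253. RGMB and its antisense RNA RGMB-AS1 overlap and both rose (0.25 and 0.68), each lost in at least 7 of the 9 fits (up to 0.334 and 0.295). Since the handling of strand is not given in the sources used here, their reads cannot be told apart.

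The dex libraries, which share no library with the ethanol ones, give a second reading of the same depletion. There 416 transcripts (4.09%) differed between shHP1γ and shNS. Of the 296 ethanol calls, 166 (56.1%) were called in dex, all in the same direction, and these were 39.9% of the dex calls. By direction, 107 of the 165 rises and 59 of the 131 falls were called. The sign was the same for 291 of the 296. The transcripts that rose had a median of 0.58 in ethanol and 0.52 in dex, those that fell -0.32 and -0.25. Ethanol and dex libraries with the same replicate number had correlated deviations from their group means (0.62 to 0.82 for shHP1γ), so the readings are not fully independent.

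GRID1 was at 0, 0 and 0.323 CPM in shNS dex and 3.28, 4.02 and 3.86 CPM in shHP1γ dex. TUFM was at 240, 242 and 269 CPM against 659, 794 and 824 CPM, LINC01694 at 29.2, 27.1 and 28.8 CPM against 70.3, 80.7 and 87.5 CPM, and ERGIC2 at 96.9, 110 and 106 CPM against 60.7, 73.5 and 65.4 CPM. TET2 on NM_017628 had 2.85, 2.67 and 1.86 CPM against 2.22, 2.12 and 2.54 CPM in dex, with overlapping groups.

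The test of the difference itself, the effect of depletion in dex minus that in ethanol, called 2 of 10167 transcripts (0.0197%), with 387 at an unadjusted p under 0.05. DESeq2 called 18, and the likelihood ratio test with a factor of unwanted variation called 12. Both calls, CYTH3 and METTL7A, were genes whose depletion effect in ethanol was not called, and none of the 296 ethanol calls had a called difference. KCNJ2 (0.83, SE 0.20, adjusted p = 0.265), PHLDA1 (0.72, SE 0.19, adjusted p = 0.438), SLC7A11 (0.77, SE 0.21, adjusted p = 0.475) and CD180 (0.53, SE 0.11, adjusted p = 0.0969) had larger or opposite effects in dex without passing the test. SLC20A2 on NM_001257181 (2.99, SE 0.63, adjusted p = 0.0969) and the pseudogene GTF2H2B (0.35, SE 0.08) were the other leading positive differences, and DISP3 (-0.71, SE 0.14, adjusted p = 0.0969) followed CYTH3 and METTL7A among the negative ones.

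**Figure D4:**
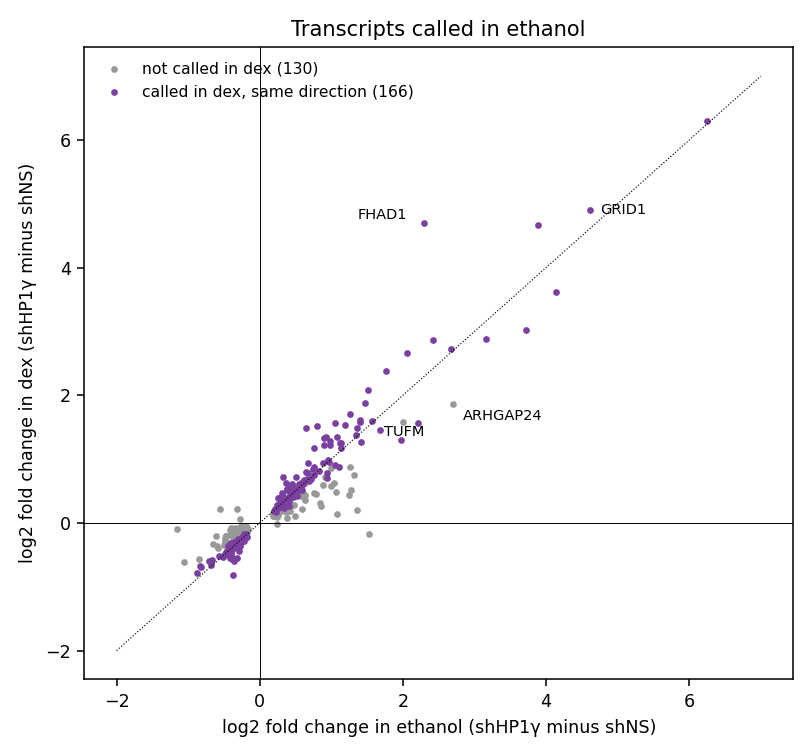
Fitted log2 fold changes, shHP1γ minus shNS, of the 296 transcripts called in ethanol, with ethanol on the horizontal and dex on the vertical axis, and the dotted line marks equal values. The 166 transcripts also called in dex (purple) lie on the same side of 0 in both, and points with near-0 counts such as FHAD1 depend on the prior count.

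Direct comparisons asked whether the state of shHP1γ cells differed from that of cells depleted of the methyltransferases that HP1γ binds. In ethanol, 617 transcripts (6.07%) differed between shHP1γ and shG9a, with 394 higher in shHP1γ, and 427 (4.2%) differed between shHP1γ and shGLP, with 235 higher. Of the 296 transcripts called against shNS, 135 also differed from shG9a and 106 from shGLP in the same direction, 66 from both and 118 from neither, while 3 and 4 differed in the opposite direction. All these comparisons share the shHP1γ libraries, so the counts describe 1 set of cells. Part of the 296 was also seen in the other depletions. Against shNS, 59 of them were called in the same direction in shG9a and 78 in shGLP. These were 34 and 62 of the 165 rises, and 25 and 16 of the 131 falls. The comparisons with shNS share its 3 libraries, so they are not independent.

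For some genes the shHP1γ libraries lay apart from the other ethanol libraries. LINC01694 was at 33.1, 30.4 and 35.7 CPM in shG9a and 38.5, 34.7 and 35.4 CPM in shGLP, against 85.1 to 93.6 CPM in shHP1γ, and the direct log2 differences were 1.44 (SE 0.09, adjusted p = 4.6e-10) and 1.305 (SE 0.09, adjusted p = 1.09e-09). ERGIC2 was at 100 to 115 CPM in shG9a and 105 to 111 CPM in shGLP, against 65.6 to 73.7 CPM in shHP1γ (direct differences -0.63 and -0.61, both SE 0.08). GRID1, TSPEAR-AS1 and MISP stayed at or under 0.37 CPM in all 6 shG9a and shGLP libraries.

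For ZNF626, LINC00861, LINC01602, RAG1 and ZNF134 the shHP1γ libraries lay on one side of shNS and the shG9a and shGLP libraries on the other, although RAG1 and ZNF134 were not called against shNS (adjusted p = 0.0784 and 0.0532). ZNF626 was at 4.08 to 4.97 CPM in shNS, 9.09 to 9.72 CPM in shHP1γ, 1.74 to 3.32 CPM in shG9a and 0.852 to 1.29 CPM in shGLP. Its direct differences were 1.96 (SE 0.20) from shG9a and 3.11 (SE 0.23, adjusted p = 8.2e-09) from shGLP. LINC00861 was at 2.03 to 3.21 CPM in shNS, 6.64 to 18.9 CPM in shHP1γ, 0.248 to 1.46 CPM in shG9a and 0.663 to 1.48 CPM in shGLP. LINC01602 was at 0.276 to 0.510 CPM in shNS and 6.99 to 8.03 CPM in shHP1γ, at or under 0.258 CPM in shG9a and at 0 in all 3 shGLP libraries. Values this low rest on a few counts, so for LINC01602 the place of shG9a and shGLP below shNS is uncertain. RAG1 was at 2226 to 2816 CPM in shG9a and 2142 to 2553 CPM in shGLP, above the 1223 to 1420 CPM of shHP1γ (-0.93 and -0.90, both SE 0.11). ZNF134 was at 102 to 122 CPM in shHP1γ, 55.8 to 73.1 CPM in shG9a and 38.4 to 39.0 CPM in shGLP (direct difference from shGLP 1.55, SE 0.09, adjusted p = 1.05e-10). Against shGLP, CD180 was at 34.9 to 44.4 CPM in shHP1γ and 85.8 to 103 CPM in shGLP (-1.26, SE 0.07), and MUC19, a gel-forming mucin, at 1.19 to 2.76 CPM against 8.52 to 13.5 CPM (-2.33, SE 0.26).

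**Figure D5:**
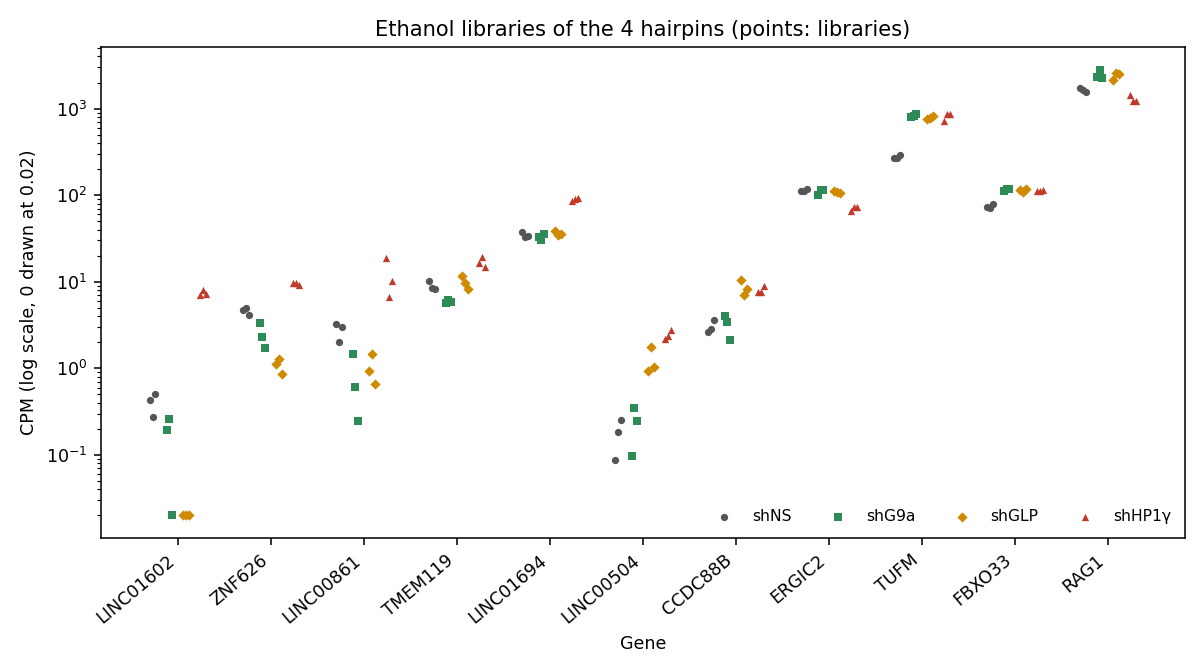
CPM on a log axis in the 3 ethanol libraries of each hairpin (shNS circles, shG9a squares, shGLP diamonds, shHP1γ triangles) for 11 genes, with 0 drawn at 0.02. The shHP1γ libraries lie apart from the other 9 for LINC01694 and ERGIC2, and the 3 depletions overlap for TUFM and FBXO33. LINC01602, ZNF626 and LINC00861 lie above shNS in shHP1γ and below it in shG9a and shGLP. For LINC01602 the side below shNS rests on a few counts and is uncertain.

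For TUFM and FBXO33 the 3 depletions could not be separated. TUFM was at 809, 816 and 860 CPM in shG9a and 762, 770 and 831 CPM in shGLP, and the direct log2 differences of shHP1γ were -0.02 (SE 0.06) and 0.05 (SE 0.06). FBXO33 was at 112 to 118 CPM in shG9a and 108 to 117 CPM in shGLP, with direct differences of -0.03 (SE 0.06) and 0.00 (SE 0.06). All 3 depletions were read against the same 3 shNS libraries, so a level particular to shNS and a shared effect of the depletions cannot be told apart. LINC00504 was at 0.924 to 1.76 CPM in shGLP and 0.0976 to 0.344 CPM in shG9a, against 2.16 to 2.76 CPM in shHP1γ, and CCDC88B was at 7.02 to 10.5 CPM in shGLP and 2.15 to 4.002 CPM in shG9a. The direct difference of CCDC88B was 1.36 (SE 0.22) from shG9a and -0.08 (SE 0.19) from shGLP. CNOT11, a subunit of a deadenylase complex, and KIF1B, a kinesin, were lower in shG9a than in shHP1γ, at 140 to 158 CPM against 257 to 283 CPM in shHP1γ and at 68.8 to 73.4 CPM against 116 to 137 CPM. SESTD1 was at 174 to 208 CPM in shG9a and 125 to 146 CPM in shHP1γ (-0.50, SE 0.06).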

How the data were processed

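RNA was sequenced by the authors as paired-end reads, mapped to hg19 (GRCh37) with HISAT2 and assigned to RefSeq transcripts with GenomicAlignments. The authors deposited a table of raw counts for 64519 accessions, 40144 of them at 0 in every library, and a second table whose columns hold their own log2 fold changes and adjusted p values for 4 comparisons. Those columns were not used, and only its gene symbols were read. The first table is named for CPM but holds whole counts. How reads shared by transcripts were counted, whether strand was used and which RefSeq release was taken is not given in the sources used here.

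Transcripts with more than 1 CPM in at least 2 samples were kept (10167 transcripts of 9391 genes, 9841 with the symbol of the authors and 9725 with a GRCh37 position). Counts were scaled by upper quartile factors and tested in R 4.3.3 with edgeR 4.0.16 (quasi-likelihood F test) in a model of the 8 groups and the replicate number over all 24 libraries, with Benjamini-Hochberg adjustment over every transcript in the fit. CPM values use the scaled library sizes, apart from the summed levels of markers and histone genes. An adjusted p of at most 0.05 was called, with no fold cutoff. Counting intervals of ratios are exact binomial intervals at 95%. Gene positions are on GRCh37, and each gene in a list is read from its transcript with the highest mean count. Alternatives were TMM factors, DESeq2 1.42.0, 1 RUVr factor, other filters, no block, only the groups compared, counts summed per gene and leaving out replicates or libraries. A GC content correction and the summed CBX3 value were added after the data had been seen.

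The labels say that the replicates were made on different days, so the replicate number entered the model. Deviations from the group mean of same-numbered shNS and shHP1γ ethanol libraries had correlations of 0.22 to 0.53 across transcripts. No library repeated another, since replicates of these groups differed by a chi-squared value of 5.09 to 29.6 per degree of freedom. The pairs come from the day of preparation. The p-values measure the spread left after group and replicate number, pooled over the 24 libraries. Ethanol and dex libraries of a hairpin with the same number entered as independent, although those of shHP1γ had correlations of 0.62 to 0.82. After the main fit, the model was also run on simulated counts made from its fitted values, with each library drawn independently.

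The comparison and the gene lists were chosen with earlier results of these data known. The text names the tested genes of the HP1 and H3K9 list, the 12 largest rises and 12 largest falls among calls with a mean of at least 1 CPM, no group with 3 counts or fewer in every library and 3 of 3 pairs in 1 direction, the 6 rises and 6 falls of at least 50 CPM with the smallest p, up to 4 calls per list, and the 3 transcripts with the smallest p in each direction of the interaction and direct comparisons. GRID1, MISP, KCNK9, FHAD1, PHLDA1, TMEM119 (in a plot), SNHG6, the neighbouring genes and the cell type markers were added after their values had been seen or from marker lists.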

Additional observations from a re-analysis of the deposited data

Results flagged for a closer look

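CYTH3 and METTL7A were the transcripts for which the effect of HP1γ depletion in dex differed from that in ethanol by the test of the difference itself. CYTH3, which encodes a guanine nucleotide exchange factor of ARF proteins, had 118, 120 and 118 CPM in shNS and 129, 94.9 and 98.1 CPM in shHP1γ in ethanol, where the log2 fold change was -0.15 (SE 0.09, adjusted p = 0.479). In dex it had 387, 400 and 448 CPM in shNS and 210, 181 and 209 CPM in shHP1γ, a log2 fold change of -1.04. The difference was -0.89 (SE 0.12, adjusted p = 0.00247, edgeR), and it was lost without replicate 2 or replicate 3, with adjusted p up to 0.392 over the 15 fits that left out a replicate or a library.

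METTL7A, a methyltransferase-like protein, had 59.8, 56.2 and 47.7 CPM in shNS and 76.3, 66.9 and 53.8 CPM in shHP1γ in ethanol (0.26, SE 0.08, adjusted p = 0.0777). In dex it had 196, 194 and 169 CPM in shNS and 146, 151 and 134 CPM in shHP1γ (-0.37). The difference was -0.64 (SE 0.11, adjusted p = 0.0272). It was lost in 12 of the 15 leave-one-out fits, with adjusted p up to 0.402. With 3 libraries in a group, no test for an outlying library was made for single genes.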

How the results depend on the processing

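For shHP1γ against shNS in ethanol, 296 calls became 66 with no replicate block and 132 with only the groups compared. They became 37 to 152 without 1 replicate and 121 to 203 without 1 library. TMM factors gave 295 calls, DESeq2 362, the RUVr factor 352, no filter 388, the 5 CPM filter 321, the GC content correction 254 and counts summed per gene 304. For shHP1γ against shNS in dex, 416 calls became 175 with no replicate block and 209 with only the groups compared, and 67 to 390 without 1 replicate or library. The 2 calls of the difference between dex and ethanol became 18 with DESeq2, 12 with the RUVr factor, 31 with no filter and 1 with no replicate block, and 0 to 3 without 1 replicate or library. For shHP1γ against shG9a, 617 calls became 240 with no replicate block and 165 with only the groups compared, and 91 to 635 without 1 replicate or library. For shHP1γ against shGLP, 427 calls became 199 and 155 in the same 2 settings, and 117 to 342 without 1 replicate or library. Neither CBX3 accession was called under any alternative, with log2 fold changes from -0.62 to -0.19. Of 50 named calls, 17 held under every alternative that gave them a value, 33 were lost under at least 1 and 0 reversed, and no replicate block lost 24 of them. The cause of these losses was not tested, apart from the fewer libraries and fewer degrees of freedom that leaving out libraries and groups brings. Where a library was left out, its group kept 2 samples, and the shared spread of the model was used. Transcripts of a few counts per library, CBX3 among them, had wide errors.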
